A study of Mus musculus with 2 samples.

Results

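Mir21a, the gene of the microRNA miR-21a, was described in the adrenal gland of 2-month-old female mice of the strain B6CASTF1/J, first-generation hybrids. It was chosen by its annotated name and position, with earlier results of these data known, and is 1 of 2202 miRNA genes in the deposited tables. The series holds 2 samples of adrenal gland and no treatment, and the labels number them as different females although both carry the same donor label. The SDs and ratios below therefore measure the spread between these samples, which may in part be technical.

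MicroRNAs are short RNAs that guide Argonaute proteins to messenger RNAs by pairing through the seed, bases 2 to 8 of the mature strand, and lower the output of those messengers. miR-21 is among the most abundant miRNAs of many tissues and is known to repress the tumour suppressor Pdcd4 and Sprouty inhibitors of growth factor signalling. In human adrenocortical cells in culture it has been described as raised by angiotensin II, the peptide that drives aldosterone secretion, and ACTH, the pituitary hormone that drives glucocorticoid output, changes several other miRNAs in the rat adrenal.

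The Mir21a gene (ENSMUSG00000065455.1) lies on the minus strand at chr11:86584067-86584158 (mm10), a hairpin of 92 bases. In GENCODE M21 it falls within exon 12, the last exon, of the Vmp1 transcript that runs the whole length of that gene (chr11:86583865-86683836), and inside that transcript's 3′ untranslated region, 1149 bases past the stop codon and 202 bases before the annotated end. Vmp1 encodes a membrane protein of autophagosome formation. Of its 8 annotated transcripts, 1 spans the hairpin. The primary transcript of miR-21 is known to start from a promoter of its own inside Vmp1 as well.

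The mature strands below show what a read of Mir21a is and how it can be told from its relatives Mir21b and Mir21c, with the seed in capitals. The sequences are from RefSeq (GRCm38.p6), written 5′ to 3′. miR-21a-5p is at chr11:86584120-86584141 and miR-21a-3p at chr11:86584082-86584103, both on the minus strand, miR-21b at chr3:29636768-29636790 on the plus strand and miR-21c at chr8:128278188-128278208 on the minus strand.
miR-21a-5p: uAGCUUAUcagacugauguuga
miR-21a-3p: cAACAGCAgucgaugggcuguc
miR-21b: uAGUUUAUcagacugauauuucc
miR-21c: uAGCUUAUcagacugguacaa
Counted from 1 at the 5′ end of miR-21a-5p, miR-21b differs at C4U, within the seed, and at G18A, G21U and A22C. miR-21c keeps the seed of miR-21a-5p and differs at A16G, G18A, U19C, U20A and G21A. Among 1738 mature sequences in the RefSeq table, the 5p seed belongs to 2 genes, Mir21a and Mir21c, and the 3p seed to Mir21a alone.

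The longest stretch that the Mir21a hairpin has in common with any of 1004 other hairpins is 15 bases, with Mir21c. That is shorter than the 22 bases of either mature strand. Whether the mature strand matches the genome elsewhere was not analysed here. The counts were made per hairpin, so the 5p and 3p strands of Mir21a could not be told apart.

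Mir21a was an abundant miRNA gene of the gland in both samples. It had 95448 counts on its own strand in replicate 1 and 29667 counts in replicate 2. Per 1000000 gene counts (CPM) its level was 33612 CPM in replicate 1, against 13012 CPM in replicate 2, with a mean of 23312 ± 14566 CPM (SD, n = 2). Replicate 1 was the higher of the pair, and the SD was 62.5% of the mean.

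Mir21a made up 3.36% of the gene counts of replicate 1 (exact Clopper-Pearson 95% interval 3.34 to 3.38%) and 1.30% of those of replicate 2 (1.29 to 1.32%). The intervals cover counting error only, since each rests on the reads of 1 library. No molecular identifiers are stated, so repeated reads of a molecule could not be told apart. At this depth counting error was far smaller than the difference between the samples. As a share of every read in the tables, unmapped and multiply aligned reads included, Mir21a held 1.03% in replicate 1 and 0.343% in replicate 2. No count fell on the opposite strand in either sample, and the column that ignores strand held the same 95448 and 29667 counts.

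Mir21b and Mir21c, the other members of the family, had 0 counts in both samples. A count of 0 allows up to 3 counts, which is 1.06 CPM in replicate 1 and 1.32 CPM in replicate 2. All counts assigned to the family therefore belonged to Mir21a.

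The libraries held 2839732 gene counts in replicate 1 and 2280028 in replicate 2, which were 30.6% and 26.3% of the reads. Unmapped reads made up 29.8% in replicate 1 and 39.7% in replicate 2, and reads aligned to several places 28.8% and 25.3%. Mature miRNAs are of nearly one length, so levels of different genes are compared as CPM without division by length. They order reads, not molecules, since small RNA libraries capture sequences unevenly.

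**Figure D1:**
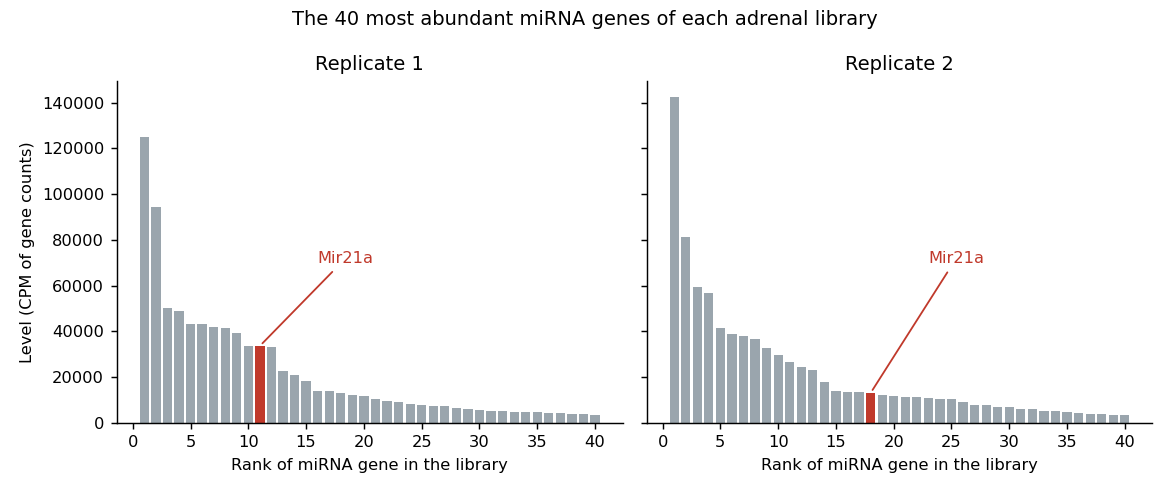
Level in CPM of the 40 most abundant miRNA genes in replicate 1 (left) and replicate 2 (right), by rank in each library, 1 bar per gene. Mir21a (red) is at rank 11 with 33612 CPM in replicate 1 and at rank 18 with 13012 CPM in replicate 2.

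By its mean level Mir21a ranked 13 of 2202 genes, at rank 11 in replicate 1 and rank 18 in replicate 2. In replicate 1 it stood between Mir10a, a Hox cluster miRNA, with 95944 counts, and Mir23b with 94178 counts. Within that library the counts of Mir21a and Mir10a did not differ beyond counting error (exact two-sided binomial test, p = 0.258, also after Benjamini-Hochberg adjustment over 8 such comparisons), while those of Mir21a and Mir23b did (adjusted p = 0.00408, exact binomial).

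In replicate 2 its neighbours were Mir26b with 30775 counts above it and Mir22 with 27454 counts below it. Both differed from Mir21a beyond counting error (exact binomial test, adjusted p of 8.9e-06 and 4.2e-20). The erythroid miRNA Mir451a, at 30910 counts, stood just above Mir26b in that library. These tests compare reads within a library and do not measure differences between animals.

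A total of 22 other genes had a mean of at least 10000 CPM. Of these, 9 exceeded Mir21a in both samples, namely Mirlet7b, Mirlet7g, Mir378a, Mir126a, Mirlet7i, Mir139, Mir375, Mirlet7d and Mir10a. Another 5 were below it in both samples, namely Mir744, Mirlet7e, Mir99a, Mir151 and Mir30d. The remaining 8, Mir22, Mir23b, Mir23a, Mir143, Mir127, Mir26b, Mir652 and Mir10b, changed places with Mir21a between the samples, so their order against it was not resolved by these data. By means, Mir21a stood between Mir23a at 26138 ± 4879 CPM and Mir143 at 22074 ± 1463 CPM (SD, n = 2), and its distance to either was smaller than the SD of Mir21a.

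Ratios within a library do not depend on how the libraries are scaled to each other. Mir21a had 0.853 times the counts of Mir375, a neuroendocrine miRNA, in replicate 1 and 0.344 times in replicate 2. Against Mir126a, an endothelial miRNA, the ratio was 0.778 in replicate 1 and 0.219 in replicate 2. Against Mir143, a smooth muscle miRNA, it was 1.60 in replicate 1 and 0.563 in replicate 2.

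The ratio of Mir21a to the other gene was higher in replicate 1 for 21 of the 22 genes, by 1.93-fold (Mir26b) to 4.49-fold (Mir127), and the median change over all 22 was 2.67-fold. The exception was Mir22, to which Mir21a stood at 0.669 in replicate 1 and 1.08 in replicate 2. All of these ratios share the counts of Mir21a and are not independent of each other.

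**Figure D2:**
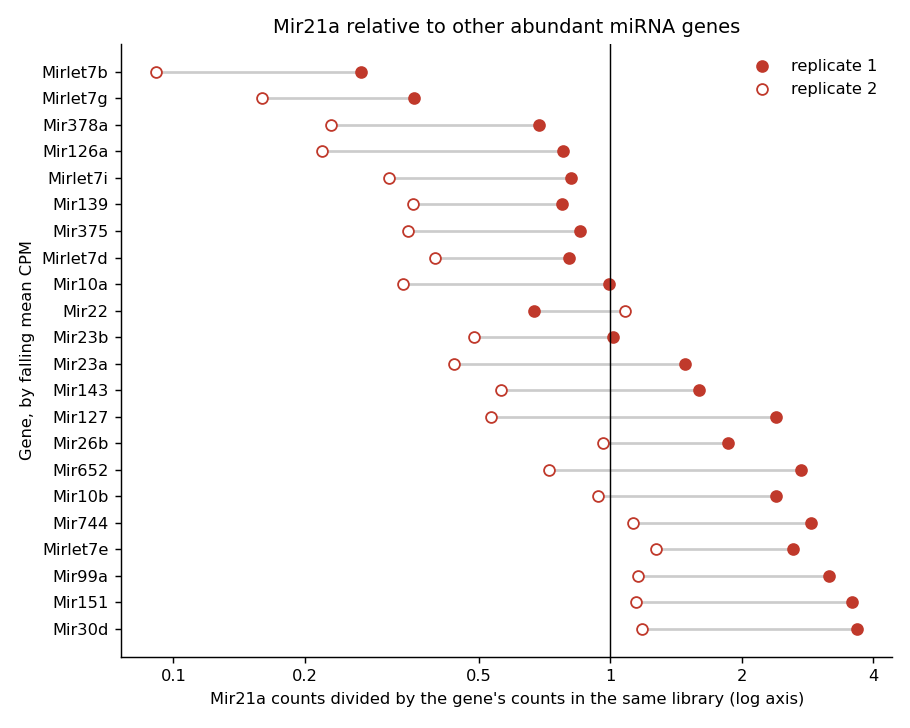
Counts of Mir21a divided by the counts of each of 22 other genes with a mean of at least 10000 CPM, within replicate 1 (filled) and replicate 2 (open), on a log axis, with genes ordered by falling mean CPM. The filled point lies to the right for 21 genes and to the left for Mir22.

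Between the samples, the CPM of Mir21a was 2.58-fold higher in replicate 1 than in replicate 2 (exact 95% interval 2.55 to 2.62), a log2 ratio of 1.37. Each gene with a mean count of at least 10 was compared by an exact two-sided binomial test of its counts given the library totals, and it passed where the p after Benjamini-Hochberg adjustment was under 0.05 and the ratio was 2-fold or more. Mir21a passed, and the base-10 logarithm of its adjusted p was -5092. The comparison is between libraries, within counting error. With 1 sample against 1, a test over samples was not run, since none could pass.

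Of the 369 genes tested, 69 passed, or 18.7%, with 37 higher in replicate 1 (10%) and 32 higher in replicate 2 (8.67%). The split was 45 against 24 when scaled by the median of ratios, and 48 against 19 when scaled to all reads. The difference of Mir21a was large beside those of most abundant genes. Among the 23 genes with a mean of at least 10000 CPM, 2 passed (8.70%), Mir22 and Mir21a. The other 21 differed by less than 2-fold, and the median size of the log2 ratio over the 22 genes other than Mir21a was 0.25. Just below that level, at ranks 24 to 32 by mean, Mir451a and Mir99b passed as 28.9-fold and 2.90-fold higher in replicate 2. Mir125a passed there as 2.45-fold higher in replicate 1, and the other genes at those ranks did not pass. All tested genes, many of them with few counts, were also compared by log2 ratio with a pseudocount of 1 CPM. Of the others, 31 (8.42%) had a log2 ratio at least as large in size as that of Mir21a. Higher in replicate 1 were 18 of those. The pseudocount lowers ratios of genes with few counts. Genes such as Mir24-2, Mir323 and Mir1291 in replicate 1, and Mir3058 and Mir450-2 in replicate 2, exceeded 2.58-fold only without it and are not counted.

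The median log2 ratio of replicate 1 to replicate 2 over the tested genes was -0.07, and it moved by 0.12 with TMM scaling, by 0.16 with median-of-ratios scaling and by 0.21 when scaled to all reads. A scaling shifts the ratios of all genes alike, and relative to that median the log2 ratio of Mir21a was 1.44. The excess of Mir21a in replicate 1 was 20599.9 CPM. That was 15.3% of the summed excess of all genes higher in that sample, second to Mir22 with 28.4%.

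**Figure D3:**
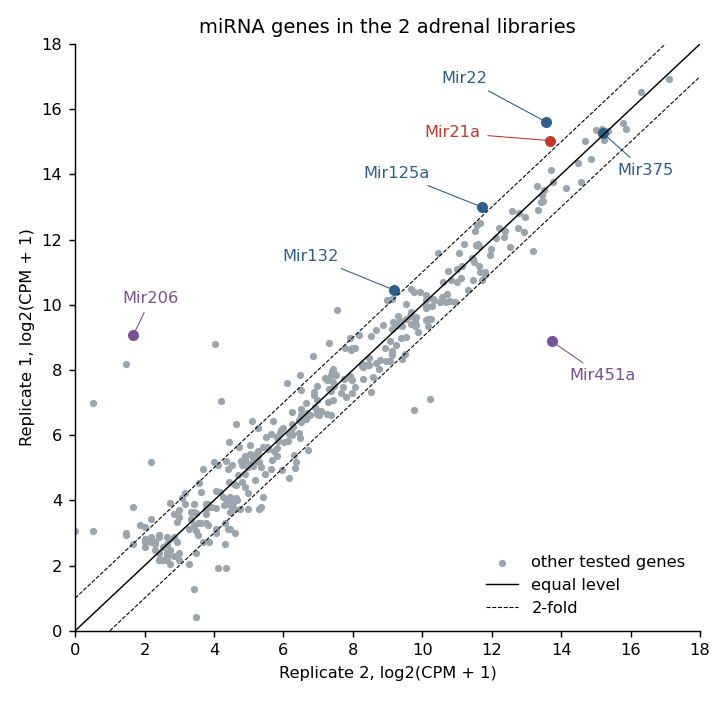
Level of each of the 369 tested miRNA genes as log2(CPM + 1) in replicate 1 (vertical) against replicate 2 (horizontal), 1 point per gene, with lines of equal level and of 2-fold difference. Mir21a (red) and Mir22 lie above the 2-fold line at the abundant end, while Mir375 lies near the line of equal level, and Mir206 and Mir451a lie far from it.

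The genes whose pattern was most like that of Mir21a were sought among 233 others with a mean count of at least 100, over 2 libraries. By distance in log2(CPM + 1) the nearest was Mir22 at 0.59, with 50215 CPM in replicate 1 against 12041 CPM in replicate 2, followed by Mir26b at 0.89, Mir23b at 1.03, Mir143 at 1.07 and Mir10b at 1.26. Of these 5, Mir22 was the one that also differed by more than 2-fold, being 4.17-fold higher in replicate 1 (95% interval 4.12 to 4.22).

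By ratio alone the nearest was Mir24-2, at 2.60-fold higher in replicate 1 (2.21 to 3.06), followed by Mir323 at 2.62-fold (2.02 to 3.44) and Mir1291 at 2.65-fold (1.90 to 3.75). These 3 rested on 644, 245 and 155 counts in replicate 1, and 199, 75 and 47 counts in replicate 2. Mir24-2 shares a mature strand with Mir24-1, at 1.67-fold, so its counts hold only reads that could be placed. Mir125a, at 2.45-fold (2.39 to 2.52), and Mir132, at 2.44-fold (2.29 to 2.60), came next and were more abundant. With 2 samples, a like ratio is a likeness in a single number.

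None of the 11 mature strands of these 5 genes and Mir22 has the seed of either strand of Mir21a. The strands of the more abundant Mir22, Mir125a and Mir132 are shown for comparison with those of Mir21a, with the seed in capitals.
miR-22-5p: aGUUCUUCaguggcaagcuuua
miR-22-3p: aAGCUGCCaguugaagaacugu
miR-125a-5p: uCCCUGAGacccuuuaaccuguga
miR-125a-3p: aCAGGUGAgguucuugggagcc
miR-132-5p: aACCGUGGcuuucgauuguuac
miR-132-3p: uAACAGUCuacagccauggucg

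Mir301 and Mir142, the tested miRNA genes within 2000000 bases of Mir21a on chromosome 11, did not share its ratio. Mir301, 528846 bases away on the plus strand, had 101 counts in replicate 1 and 187 in replicate 2, and passed as 2.31-fold higher in replicate 2, though at 1.98-fold it no longer passed when scaled to all reads. Mir142, a leukocyte miRNA 1172706 bases away, had 595 counts in replicate 1 and 486 in replicate 2, a ratio of 0.983 (95% interval 0.870 to 1.11). Of the others within 2000000 bases, Gm23564 and Mir5110 had 0 counts, Mir378b had 2 and 6 counts in replicates 1 and 2, and Mir142b, which overlaps Mir142 on the other strand, had 0 sense counts. Among 30 tested genes of chromosome 11, Mir21a, Mir22, Mir132, Mir195a and Mir338 were higher in replicate 1, and Mir451a, Mir144 and Mir301 were higher in replicate 2. These 8 of 30 are 26.7%, against 18.7% of all tested genes. The 8 include Mir21a itself, which was known to pass, and the adjacent Mir144 and Mir451a. The count was added after the values were seen, so no excess on the chromosome is read from it. The median log2 ratio over the 30 was -0.01.

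Mir21a was then set beside miRNAs described in ACTH responses and steroid output of the cortex (3 lists), in inflammation and growth signalling, and in fibroblasts and matrix. Over the 32 genes of these 5 lists, 30 could be tested and 4 passed, all higher in replicate 1. That was 13.3%, against 18.7% of all tested genes that passed in either direction and 10% that passed as higher in replicate 1. The 4 were Mir132, Mir200b, Mir24-2 and Mir125a. Of these, Mir200b reached the minimum mean count of 10 only through replicate 1, so the direction of its call was set by that minimum. Mir29b-1 joined the 4 with TMM, median-of-ratios and all-read scaling. The median log2 ratio of the 30 was 0.30, against -0.07 for all tested genes.

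Of the 7 miRNAs described as raised by ACTH in the rat adrenal, 1 passed. Mir132, a miRNA induced through the cyclic AMP response factor CREB, had 1405 CPM in replicate 1, against 576 CPM in replicate 2, and passed. Its neighbour Mir212 had 40.5 CPM in replicate 1 against 28.5 CPM in replicate 2, a ratio of 1.42 (95% interval 1.04 to 1.96). Mir183 stood at a ratio of 1.43, Mir370 at 0.892, Mir182 at 0.821, Mir377 at 0.740 and Mir96 at 0.669, and the median log2 ratio of the 7 was -0.16. Summed, the list came to 2834 CPM in replicate 1 against 2024 CPM in replicate 2, and Mir21a alone was 11.9 and 6.43 times as high.

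Of the 7 described as lowered by ACTH in the rat adrenal, Mir200b passed, with 99 counts in replicate 1 and 8 in replicate 2. Mir200b reached the minimum mean count of 10 only through replicate 1. Mir122 had 3721 CPM in replicate 1 against 2358 CPM in replicate 2, and Mir27a 1343 and 865 CPM, ratios of 1.58 and 1.55. The other 4, Mir138-1, Mir138-2, Mir214 and Mir503, stood at ratios of 0.861 to 1.48, and the median log2 ratio of the list was 0.55. Each of the ACTH lists held members on both sides of equal level.

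Among miRNAs described as acting on steroid enzymes or lipoprotein receptors, Mir125a and Mir24-2 passed and 5 of 7 did not. Mir125a, which has been described as a repressor of the HDL receptor Scarb1 in rat steroidogenic cells, had 8199 CPM in replicate 1 and 3341 CPM in replicate 2. Mir455, described with the same target, had 2525 and 2899 CPM. Mir320 had 4841 CPM in replicate 1 against 7760 CPM in replicate 2, a ratio of 0.624, so the abundant members of the list lay on both sides of equal level. The median log2 ratio of the 7 was 0.54. Mir24-1 with Mir24-2, Mir125b-1 with Mir125b-2, and likewise the numbered pairs of Mir138, Mir29b and Mir199a, share a mature strand, so their counts hold only reads that could be placed.

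None of the 4 tested miRNAs of inflammation and growth signalling passed by the binomial rule, nor did any of the 6 tested fibroblast and matrix miRNAs with CPM, while Mir29b-1 of the second list passed with the other scalings. In the first list 3 of the 4 had an adjusted p under 0.05 with a difference below 2-fold, where 62.6% of all tested genes had such a p, whatever the size of their difference. Mir146, a brake on NF-κB signalling, had 1355 CPM in replicate 1 against 978 CPM in replicate 2, and Mir221, a growth-related miRNA, 1099 and 1780 CPM. Mir155 had 329 and 354 CPM, Mir222 250 and 172 CPM, and Mir146b 4 counts and 1 count. The median log2 ratio was 0.18 for this list.

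In the fibroblast and matrix list, Mir29a, a repressor of collagen genes, had 6601 CPM in replicate 1 against 7950 CPM in replicate 2, and Mir214 999 and 1111 CPM. Mir29b-1, of the same family, had 139 counts in replicate 1 and 58 in replicate 2, a ratio of 1.92. In this list 4 of the 6 had an adjusted p under 0.05, against the same 62.6% of all tested genes. Its median log2 ratio was -0.15, and Mir199a-1 had 0 counts in both samples.

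**Figure D4:**
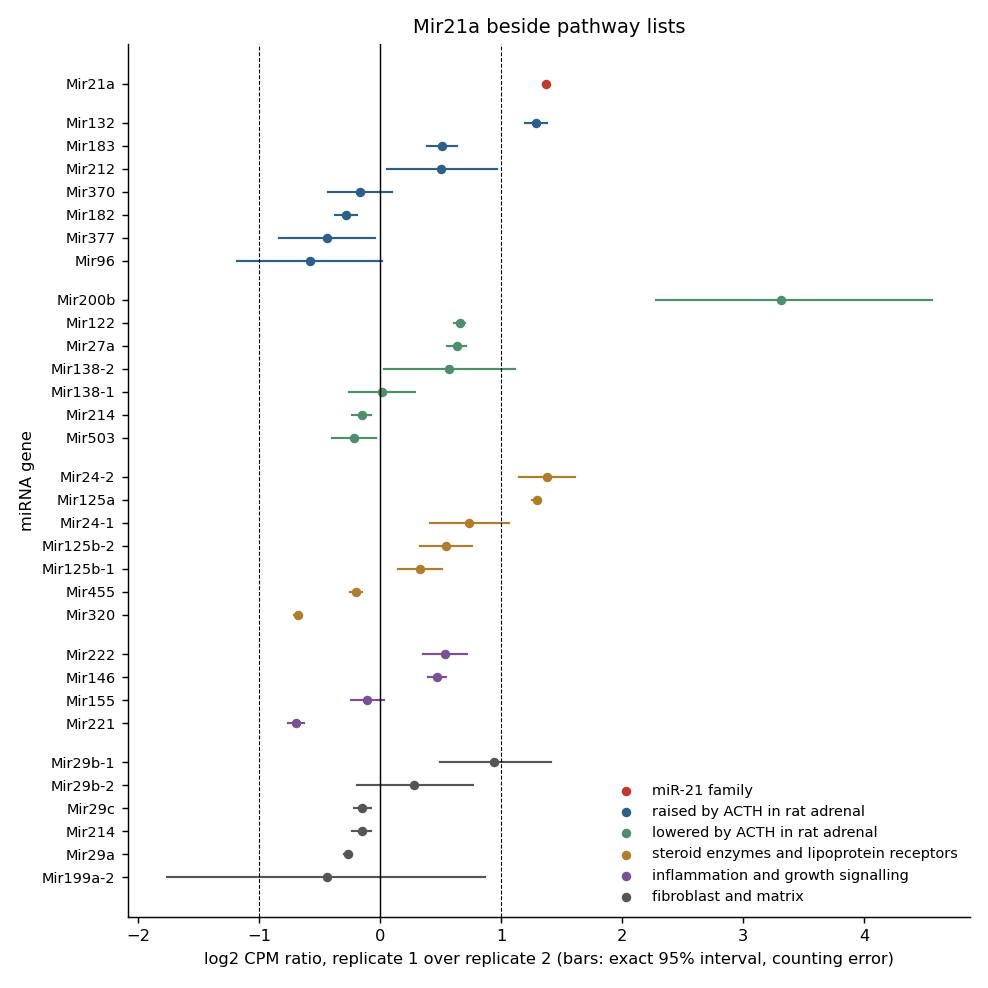
log2 ratio of the CPM of replicate 1 to that of replicate 2 for Mir21a and the tested members of 5 pathway lists, 1 point per gene, with exact 95% intervals that cover counting error only and dashed lines at a 2-fold difference in each direction. Mir21a lies at 1.37, Mir132, Mir24-2, Mir125a and Mir200b also lie beyond the right dashed line, and no member lies beyond the left one.

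Some markers of cell types that the gland can hold also differed between the samples. Over all 369 tested genes, 10% passed as higher in replicate 1 and 8.67% as higher in replicate 2. In bulk tissue, fewer cells of a type and less RNA per cell cannot be told apart. The 10 muscle miRNAs summed to 953 CPM in replicate 1 and 6.58 CPM in replicate 2. Their 3 tested members, Mir206, Mir499 and Mir208b, had 1517, 818 and 354 counts in replicate 1 and 5, 4 and 1 in replicate 2. Each reached the minimum mean count of 10 only through replicate 1, so the direction of these calls was set by that minimum. All 3 passed as higher in replicate 1, and Mir133a-1, Mir133a-2 and Mir133b were at 0 counts in both samples. The numbered pairs of Mir133a and of Mir1a share a mature strand, so a low count of these may mean only that their reads could not be placed, and the muscle sum may lack them.

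The 3 erythroid miRNAs summed to 643 CPM in replicate 1 against 14488 CPM in replicate 2, and both Mir144 and Mir451a passed, higher in replicate 2. Mir451a carried most of that sum, with 469 CPM in replicate 1 against 13557 CPM in replicate 2, while Mir486 had 65.9 CPM in replicate 1 against 58.3 CPM in replicate 2 and did not pass. The 4 leukocyte miRNAs summed to 1331 CPM in replicate 1 and 1051 CPM in replicate 2. Among them Mir223, a myeloid miRNA, had 377 counts in replicate 1 and 40 in replicate 2 and passed as 7.57-fold higher in replicate 1 (95% interval 5.45 to 10.8), while Mir142, Mir150 and Mir155 did not pass. With the muscle, erythroid and leukocyte genes left out of the totals, the log2 ratio of Mir21a was 1.35. This changes the totals alone, so it cannot show which cells the reads of Mir21a came from.

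The 5 epithelial miRNAs summed to 98.2 CPM in replicate 1 against 46.1 CPM in replicate 2. Mir200a, Mir200b and Mir429 passed as higher in replicate 1, with 19, 99 and 37 counts there and 4, 8 and 5 in replicate 2. They reached the minimum mean count of 10 only through replicate 1, so the direction of these calls was set by that minimum. Mir200c and Mir141 did not pass, and 10% of all tested genes passed as higher in replicate 1. The neuroendocrine list summed to 42776 and 40149.5 CPM in replicates 1 and 2, of which Mir375 held 39421 and 37780 CPM. Its other members stood at ratios of 1.45 (Mir7-1), 1.45 (Mir7b) and 0.526 (Mir7-2). In the same order, smooth muscle summed to 22164 and 24400.1 CPM, endothelial Mir126a to 43203 and 59463 CPM and liver Mir122 to 3721 and 2358 CPM. No member of the neuroendocrine, smooth muscle, endothelial and liver lists passed. The marker lists used here hold no miRNA confined to adrenal cortex, so the cortical identity of the tissue was not tested with it. The part of muscle, myeloid and epithelial RNA in the difference of Mir21a was not tested.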

How the data were processed

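MicroRNA sequencing of total RNA was analysed in 2 samples of 1 group. The authors deposited raw counts per miRNA gene for each sample, not normalized. Per the information files deposited with the counts, reads were counted on mm10 with GENCODE M21. Aligner and counting program: these are not given in the sources used here. A table has an unstranded, a sense and an antisense column, and the sense column, whose total is the larger of the single-strand ones, was used. The 4 rows that name no gene (unmapped, multiply aligned, outside genes, in several genes) held 29.8%, 28.8%, 10.8% and 8.6e-05% of the reads of replicate 1 and 39.7%, 25.3%, 8.60% and 0% of those of replicate 2. They were kept out of totals and tests. All 2202 identifiers matched GENCODE M21.

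Counts were scaled to 1000000 per library. Log2 ratios of lists, those behind medians and counts over tested genes, and those used for likeness by ratio have a pseudocount of 1 CPM. The exact binomial test was run over the genes whose mean count reached 10 (scipy 1.17.1) and was tested on simulated data. The simulated counts held counting error only, so they say nothing about spread between samples. TMM factors came from edgeR 4.0.16 and median-of-ratios factors from DESeq2 1.42.0. RefSeq mature sequences were found for all 9 genes sought.

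The gene, the lists and the tests were chosen with earlier results of these data known. Named were Mir21a, list members, the 5 genes on each side of Mir21a by mean CPM, the 5 nearest by level and by ratio, and miRNA genes within 2000000 bases. Calls of Mir301 and of list members under other scalings, chromosome 11 as a whole and the summed excess were added after the values were seen. Variants of the hybrid strain were not analysed here.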

Additional observations from a re-analysis of the deposited data

How the results depend on the processing

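The ratio of Mir21a between the samples kept its direction and passed under all 7 alternatives run, of which the 2 count minimums cannot move it, with log2 ratios of 1.31 (without regard to strand) to 1.59 (when scaled to all reads). Its mean level lay between 23312 and 26853 CPM under strand, scaling and marker alternatives. It was 6857 per 1000000 of all reads, a different denominator by construction. Leaving out a replicate gave levels of 13012 to 33612 CPM, shares of 1.30 to 3.36% and ranks of 11 to 18, which are the values of the single samples. Counted without regard to strand, Mir21a ranked 11, and its ratio to 19 of 20 other genes was higher in replicate 1. That column held 0 counts of the abundant Mir378a and Mirlet7e in both samples. Of Mir126a it held 5 counts in replicate 1 and 8 in replicate 2. Its totals were smaller, at 2492422 and 1925204 gene counts, so the higher rank and CPM of Mir21a there do not reflect more counts of it. The number of genes that passed was 33 at a mean count of at least 100 (21 higher in replicate 1 and 12 in replicate 2), where 234 genes were tested, and 19 were higher in replicate 2 when scaled to all reads. No paired analysis was possible because the labels give 1 group. Counting error limits genes with few counts, while that of Mir21a is small beside the difference between samples.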
